A study of Homo sapiens with 33 samples.

Results

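ATP-driven membrane pumps of 2 families were followed on cDNA arrays of a monocytic and a colon carcinoma cell line: the ABC transporters and the P-type ATPases. The members are all spots that carry exactly 1 gene symbol in the platform annotation and whose symbol begins with ABCA to ABCG plus a number, or with ATP1, 2, 4, 7, 8, 9, 10, 11, 12 or 13 followed by A or B. This gave 86 spots for 48 genes, out of 34560 spots in all, of which 18025 carry 1 symbol for 10726 genes. The ABC family holds 50 spots of 28 genes and the P-type family 36 spots of 20 genes. A further spot with several symbols, of which 1 matches, was left out. By RefSeq, 82 of the spots belong to protein-coding genes and 4 to transcribed pseudogenes, namely both spots of ABCC13 and those of ABCC6P1 and ATP8B5P. ABCB1, ABCC1, the alpha subunits of the sodium pump and the copper pumps ATP7A and ATP7B were not analysed here.

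The study asked how gene expression in each line responds to tumour necrosis factor alpha (TNF-alpha), an inflammatory cytokine. THP-1 is a human monocytic leukaemia line that grows in suspension and was kept in RPMI 1640 with 10% serum and 2-mercaptoethanol. CaCo-2 is a human colon carcinoma line with epithelial features that grows attached and was kept in DMEM with 20% serum. Cells were left unstimulated (control) or received TNF-alpha at 5 ng/ml for 60 min. The 22 arrays used are 5 THP-1 control, 7 THP-1 TNF-alpha, 5 CaCo-2 control and 5 CaCo-2 TNF-alpha arrays, each of radioactively labelled cDNA. The labels do not state whether arrays hold RNA of separate cultures. The p-values therefore reflect no more than array-to-array spread, and this may be technical. Line and culture medium cannot be told apart, and in RNA of whole cultures neither can fewer expressing cells and less RNA per cell.

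ABC transporters bind and split ATP in paired nucleotide-binding domains and move lipids, bile constituents, conjugates or drugs across membranes; the ABCE and ABCF proteins have no membrane domain and act in translation. P-type ATPases form a phosphorylated intermediate in each transport cycle. They include the calcium pumps of the endoplasmic reticulum (ATP2A) and plasma membrane (ATP2B), the lipid flippases (ATP8 to ATP11) and the ATP13A pumps, while ATP1B1 and ATP1B3 encode beta subunits of the sodium pump, which help its catalytic subunit to fold and reach the membrane. In enterocytes such proteins handle bile salts, drugs and dietary lipid, and in monocytes and macrophages ABCA1 and ABCG1 export cholesterol.

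The promoters of ABCC4, ATP11A and ABCA13 are shown with matches to a motif of NF-kappaB, a transcription factor through which TNF-alpha largely acts. ABCC4 and ATP11A are named below for differences between the lines, and 0 members passed for TNF-alpha. They were taken from RefSeq (GRCh38.p14), in which 36 of the 48 genes were matched, without ABCC13 and ATP8B5P, and run from 250 bases before the start of the gene to 50 after it. Capitals mark matches to the kappaB motif, GGG followed by 5 bases of any kind and CC, on either strand. The ABCC4 promoter is chr13:95301402-95301701 on the minus strand, that of ATP11A is chr13:112689788-112690087 on the plus strand, and that of ABCA13 is chr7:48171208-48171507 on the plus strand.
ABCC4: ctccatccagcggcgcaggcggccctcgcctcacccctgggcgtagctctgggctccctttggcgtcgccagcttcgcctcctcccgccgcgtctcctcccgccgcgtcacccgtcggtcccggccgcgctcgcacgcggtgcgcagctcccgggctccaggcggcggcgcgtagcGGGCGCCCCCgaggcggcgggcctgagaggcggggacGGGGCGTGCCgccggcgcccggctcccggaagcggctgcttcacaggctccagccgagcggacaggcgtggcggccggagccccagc
ATP11A: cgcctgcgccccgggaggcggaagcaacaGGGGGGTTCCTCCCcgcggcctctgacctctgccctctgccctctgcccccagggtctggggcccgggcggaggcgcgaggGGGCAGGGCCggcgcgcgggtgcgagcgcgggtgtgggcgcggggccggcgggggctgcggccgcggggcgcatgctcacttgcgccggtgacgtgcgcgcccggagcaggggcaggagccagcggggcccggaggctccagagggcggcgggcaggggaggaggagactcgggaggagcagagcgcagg
ABCA13: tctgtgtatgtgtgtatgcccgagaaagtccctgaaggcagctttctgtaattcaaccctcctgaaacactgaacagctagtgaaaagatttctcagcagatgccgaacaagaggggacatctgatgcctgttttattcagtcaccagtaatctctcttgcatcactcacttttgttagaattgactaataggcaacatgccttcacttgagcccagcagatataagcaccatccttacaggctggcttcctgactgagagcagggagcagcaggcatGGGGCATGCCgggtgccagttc
ABCC4 holds 2 matches, ATP11A 4, of which 3 overlap, and ABCA13 1, which lies behind the start of the gene. The motif is loose: 58.6% of all 34796 distinct promoters hold it, against 38 of the 50 member promoters (76%). It is rich in G and C, as are the promoters of ABCC4 (79.7%) and ATP11A (80.3%), against 48.3% for ABCA13. Whether base composition bears on these shares was not tested. The PU.1 motif GAGGAAGT, named for a factor of the myeloid lineage, stood in 0 of the 50 and in 2.60% of all. The motif TTTAT of the intestinal CDX factors stood in 13 of the 50 (26%) and in 35.0% of all. Both were searched on both strands. A match is a string of letters and not a bound site.

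Arrays list an exact 0 at between 32.1% and 39.6% of their spots, and no label says what a 0 stands for. A 0 was therefore treated as a missing level and studied apart as a presence call, and a fit with 0 raised to the lowest reading of the array is given beside it. THP-1 control replicate 3 is a column on another scale than the other arrays used, and was divided by 3. The lines were checked by marker lists. Of 22 colon epithelial markers 5 had spots: VIL1 and CLDN4 were higher in CaCo-2 (log2 difference 0.09 ± 0.02 SE and 0.11 ± 0.03 SE, adjusted p = 0.00468 and 0.0341, limma), and ELF3 read above 0 on 8 of 10 CaCo-2 and 0 of 12 THP-1 arrays (adjusted p = 0.0496, Fisher's exact test). Of 20 monocyte markers 7 had spots, and LAPTM5 read above 0 on 1 of 10 CaCo-2 and 12 of 12 THP-1 arrays (adjusted p = 0.0267, Fisher's exact test), with LAIR2 at 2 of 10 and 12 of 12 (adjusted p = 0.0496). The other markers with spots did not pass, CSF1R, CD4, PTPRC, CDH17 and GPA33 among them. Of 8 fibroblast and endothelial markers 6 had spots and 0 passed, and 0 of 7 lymphocyte markers had a spot. No spot of these lists was at 0 on all arrays.

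Among the members, the clearest difference in presence between the lines was at 1 spot of ABCC13, 38P17, and not at its other spot. Spot 38P17 read above 0 on all 10 CaCo-2 arrays and on 1 of 12 THP-1 arrays. ATP8B5P, a pseudogene of the flippase family, leaned the same way (10 of 10 against 3 of 12), and a spot of the flippase ATP11A leaned towards THP-1 (1 of 10 against 11 of 12), but neither passed after adjustment.

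ABCC13 descends from a transporter of the multidrug resistance protein subfamily and is annotated as a transcribed pseudogene on chromosome 21. The log2 levels of spot 38P17 were -1.12, -0.89, -1.05, -0.92 and -1.03 on the CaCo-2 control arrays. With TNF-alpha they were -1.05, -1.02, -0.78, -0.81 and -1.10. In THP-1 the spot was listed at 0 on every array except TNF-alpha replicate 5, at -1.13, just below the lowest CaCo-2 array. As deposited that array read 0.467, within the 0.402 to 0.589 of the CaCo-2 TNF-alpha arrays. What a 0 stands for is unknown, so absence of the transcript from THP-1 was not shown. In presence, the lines differed at an adjusted p = 0.0280 (Fisher's exact test per spot, 2-sided, adjusted over all 34560 spots). This test was added after the data were seen and counts control and TNF-alpha arrays as independent. CaCo-2 levels of the 2 groups deviated together, as given below, so the arrays may not be independent. The test called 98 spots in all (0.284%), 56 of them (0.162%) higher in CaCo-2, and 1 of the 86 members. ABCC13 kept this call without any single array. The second spot of ABCC13, 38B04, did not show the pattern: it read above 0 on 1 of 10 CaCo-2 and 0 of 12 THP-1 arrays.

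ATP8B5P lies on chromosome 9. It read -0.74, -0.08, -0.66, -0.58 and -0.64 on the CaCo-2 control arrays and -0.92, -0.61, -0.21, -0.74 and -0.65 with TNF-alpha. THP-1 control arrays were all listed at 0, and 3 of the 7 THP-1 TNF-alpha arrays read -1.03, -1.05 and -1.02. Every measured CaCo-2 level thus lay above every measured THP-1 level. The presence test gave an adjusted p = 0.113 (Fisher's exact test). Under TNF-alpha the measured levels differed by 0.41 ± 0.12 SE (adjusted p = 0.167, limma), from 5 and 3 arrays.

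ATP11A encodes a flippase that moves phosphatidylserine to the inner leaflet of the plasma membrane. Its spot 51M23 read between -2.01 and -1.95 on the 5 THP-1 control arrays and between -2.02 and -1.93 on 6 of the 7 THP-1 TNF-alpha arrays, with replicate 8 at 0. In CaCo-2 a single array, control replicate 5, read above 0, at -2.02. The adjusted p was 0.0826 (Fisher's exact test), and the spot passed when THP-1 TNF-alpha replicate 8 or CaCo-2 control replicate 5 was left out. Its other spot, 47O09, was above 0 on 4 of 10 CaCo-2 and 8 of 12 THP-1 arrays.

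**Figure D1:**
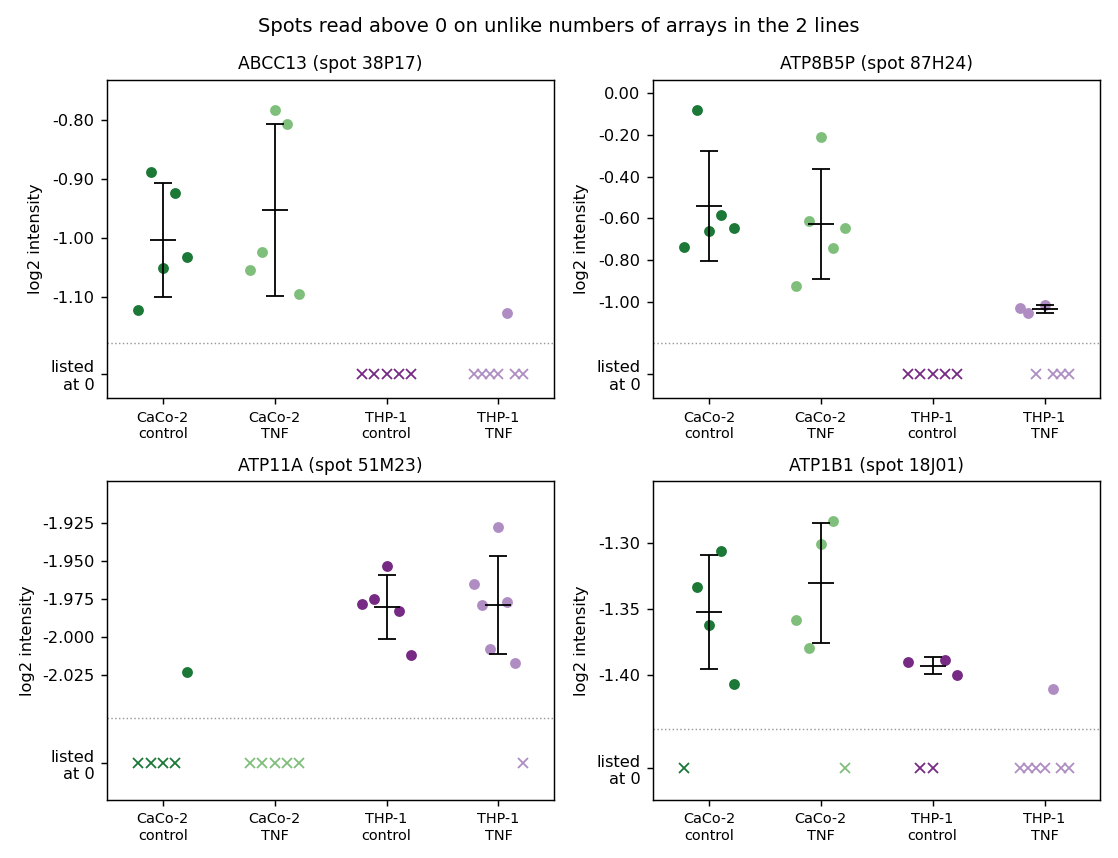
Log2 intensity (vertical axis) of 4 spots on each of the 22 arrays, by group (horizontal axis); dots are arrays, crosses arrays listed at 0, bars the mean and SD of the measured arrays where there are at least 2. ABCC13 and ATP8B5P read above 0 on all 10 CaCo-2 arrays, ATP11A on 11 of 12 THP-1 arrays and 1 of 10 CaCo-2 arrays, and ATP1B1 on 8 of 10 and 4 of 12.

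Among the calcium pumps, ATP2A3, the SERCA3 isoform found in blood cells and some epithelia, was above 0 on 4 of 10 CaCo-2 and 12 of 12 THP-1 arrays (adjusted p = 0.198, Fisher's exact test). The 4 CaCo-2 arrays read between -2.54 and -2.40 and the 12 THP-1 arrays between -2.56 and -2.38, so that the levels overlapped where the spot was measured. The same held for the flippase-related ATP9B (spot 14H21) with 4 of 10 against 12 of 12 (adjusted p = 0.198), at -2.30 to -2.18 in CaCo-2 and -2.38 to -2.23 in THP-1. ABCA2, a lipid transporter of late endosomes and lysosomes, was above 0 on 5 of 10 against 12 of 12 arrays at spot 27B10 (adjusted p = 0.331), while its spot 02J23 stood at 7 and 10. For ABCC5, an exporter of cyclic nucleotides, spot 37K20 stood at 2 of 10 against 9 of 12 (adjusted p = 0.514). In the other direction, ABCF3 spot 31O01 stood at 5 of 10 against 0 of 12 (adjusted p = 0.331) and ATP1B1 spot 18J01 at 8 of 10 against 4 of 12 (adjusted p = 0.626). None of these 6 spots passed the threshold of 0.05. Other spots of these genes differed in part. ABCF3 08F07 and 63K20 were above 0 on all 22 arrays, and 21O13 on 8 of 10 CaCo-2 and 11 of 12 THP-1 arrays. ATP1B1 53E12 stood at 4 of 10 against 2 of 12, and ATP9B 09L10 at 3 of 10 against 9 of 12. ABCC5 07N23 stood at 9 of 10 against 12 of 12, and 49I08 at 0 throughout.

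With a spot counted as 0 only where both deposited columns of an array are 0, ABCC13 stayed at 10 and 1, ATP11A became 3 of 10 against 11 of 12 (adjusted p = 0.318, Fisher's exact test), ATP8B5P 10 against 4 (adjusted p = 0.188) and ABCF3 7 against 0 (adjusted p = 0.115). A second column exists for 6 of the 10 CaCo-2 and 3 of the 12 THP-1 arrays.

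**Figure D2:**
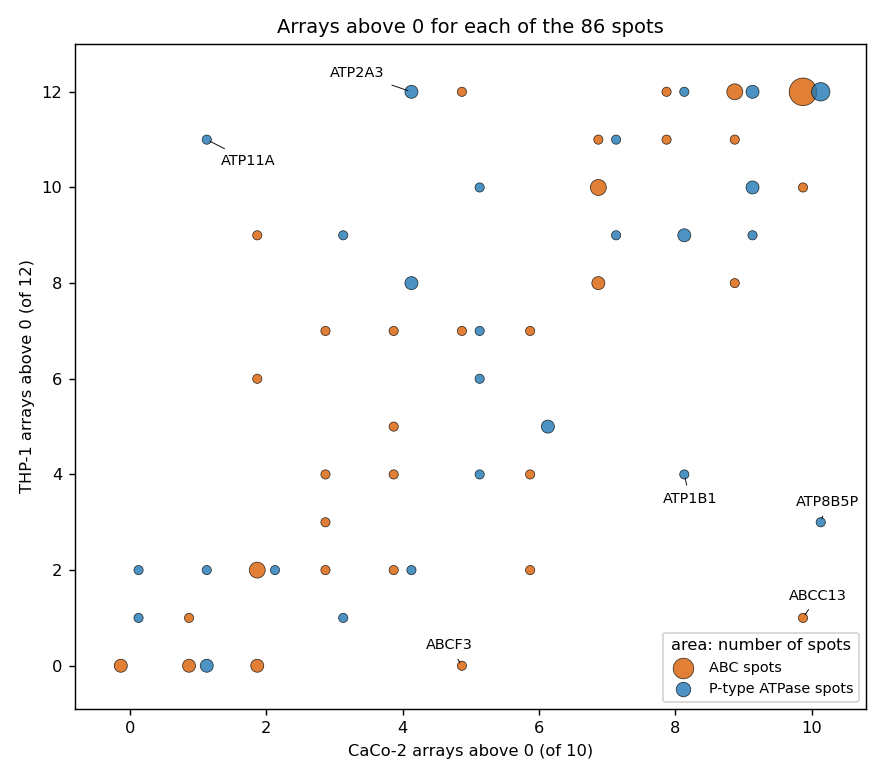
Number of CaCo-2 arrays (horizontal, of 10) and THP-1 arrays (vertical, of 12) on which each of the 86 spots read above 0; the area of a point is the number of spots there, and the families are shifted sideways a little so as not to hide each other. ABCC13 and ATP8B5P lie at the lower right, ATP11A and ATP2A3 at the upper left, and 13 spots at 10 and 12.

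Members as a whole were read about as often as other spots. Of the 86, 13 were above 0 on all arrays on which they were measured (15.1%, against 19.2% of all spots), 2 were at 0 throughout (2.33% against 1.09%) and 71 were mixed. The 13 are ABCA1 79D14, ABCA6, ABCA10, ABCA13, ABCB10 28B04, ABCC2 29B14, ABCF3 08F07 and 63K20, ABCG2 20G05, both ATP1B3 spots, ATP8B1 and ATP8B2. The 2 at 0 are ABCC5 49I08 and ABCF2 57J24. On 11 or more arrays, 56 spots were above 0, and 17 spots were so on 1 to 5. At an unadjusted exact p under 0.05 there were 9 member spots (10.5%, against 6.87% of all spots), 4 with more CaCo-2 arrays and 5 with more THP-1 arrays. A fixed rule, above 0 on every array of 1 group and 0 on every array of the other, called ABCC13 38P17 and ATP8B5P between the control groups, of 127 spots in all (0.368%). Between the TNF-alpha groups it called 80 spots (0.232%) and 0 members.

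Among levels that were measured, ABCC4 was the 1 member that passed between the lines. ABCC4 encodes MRP4, an exporter of cyclic nucleotides, prostaglandins and drug conjugates. Its spot 13H21 read -2.73, -2.71, -2.71 and -2.71 on 4 CaCo-2 control arrays, with replicate 5 at 0. CaCo-2 TNF-alpha arrays read -2.70, -2.65, -2.69, -2.71 and -2.68. THP-1 control arrays lay higher, at -2.60, -2.53, -2.58, -2.50 and -2.52, and did not overlap with the CaCo-2 control arrays. The 7 THP-1 TNF-alpha arrays ranged from -2.67 over a median of -2.63 to -2.45 and overlapped with CaCo-2. The difference, CaCo-2 minus THP-1, was -0.17 ± 0.02 SE between control arrays (adjusted p = 0.0471, limma), -0.11 ± 0.04 SE between TNF-alpha arrays (adjusted p = 0.190) and -0.14 ± 0.02 SE over both (adjusted p = 0.00291). Beside it, 13 of 24758 spots passed between control arrays (0.0525%) and 1500 of 22507 over both (6.66%). Between TNF-alpha arrays 104 of 26087 passed (0.399%) and 0 of 53 members. Of the calls over both conditions 58.9% were higher in CaCo-2, a share that went to 75.5% with array medians subtracted and to 38% without normalization.

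The ABCC4 difference is small and depends on how arrays were scaled and on which column was used. As deposited, its intensities overlapped, at 0.141 to 0.175 in CaCo-2 control and 0.163 to 0.180 in THP-1 control arrays. It did not pass between control arrays without normalization (adjusted p = 0.771, limma) or with 0 at the lowest reading (adjusted p = 0.405), and with the mean of both columns of an array it was 0.04 between control arrays and -0.01 over both (adjusted p = 0.841 and 0.943). Over both conditions it did not pass without normalization either (adjusted p = 0.408, limma) or with 0 at the lowest reading (adjusted p = 0.125). It passed there with array medians subtracted (adjusted p = 0.00811) and with any single array left out (adjusted p from 0.00183 to 0.00724), and between control arrays in 3 of 10 such fits, without THP-1 control replicate 3 or CaCo-2 control replicate 1 or 5 (adjusted p from 0.0270 to 0.154).

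**Figure D3:**
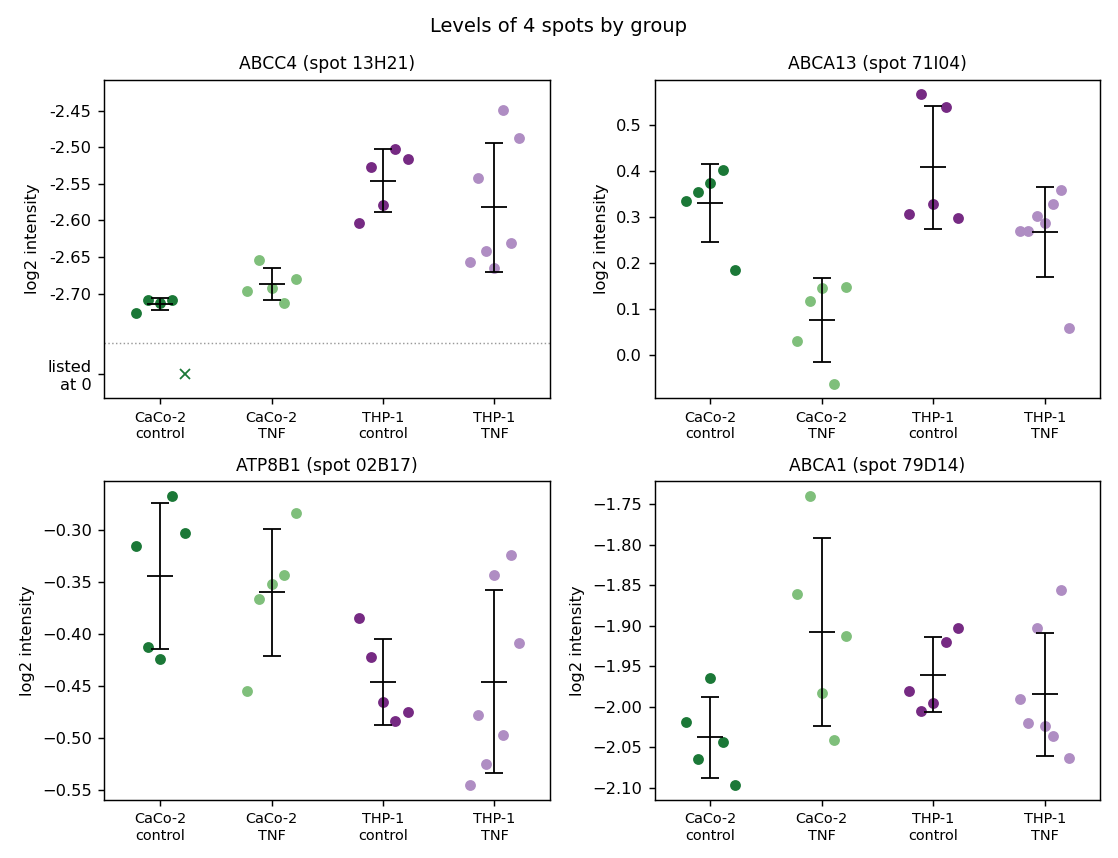
Log2 intensity (vertical axis) of 4 spots by group (horizontal axis); dots are the arrays, bars the mean and SD of the measured arrays, and a cross marks an array listed at 0. CaCo-2 control arrays lie below THP-1 control arrays for ABCC4, and the 5 CaCo-2 TNF-alpha arrays of ABCA13 lie below its 5 CaCo-2 control arrays.

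ABCA13, a very large member of the lipid-transporting ABCA subfamily, had the lowest difference of the members between TNF-alpha arrays. It was lower in CaCo-2 by -0.19 ± 0.05 SE there (adjusted p = 0.126, limma), by -0.08 ± 0.07 SE between control arrays and by -0.13 ± 0.04 SE over both (adjusted p = 0.0615). ATP8B1, a flippase needed for bile flow and mutated in an inherited cholestasis, had the highest difference over both conditions, at 0.09 ± 0.03 SE (adjusted p = 0.0666). It read -0.31, -0.41, -0.42, -0.27 and -0.30 on CaCo-2 control arrays and -0.38, -0.42, -0.47, -0.48 and -0.47 on THP-1 control arrays, so that the ranges overlapped. Neither gene passed.

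Other members differed little between the lines in measured level at the spots given here. Small differences do not show like expression, as the markers VIL1 and CLDN4 themselves differed by only 0.09 and 0.11. ABCF3, which acts in translation, had a difference of 0.07 ± 0.03 SE over both conditions at spot 08F07 (adjusted p = 0.104, limma). The sodium pump subunit ATP1B3 had 0.05 ± 0.02 SE at spot 18G09 (adjusted p = 0.120). ABCA6 had -0.06 ± 0.03 SE (adjusted p = 0.169). ATP2A2, the SERCA2 pump, was at -0.10 ± 0.03 SE between TNF-alpha arrays (adjusted p = 0.205) with 1 THP-1 array excluded by its code. ABCG2, a drug and urate exporter of the enterocyte's apical membrane, read -1.37 to -1.29 in CaCo-2 control and -1.33 to -1.25 in THP-1 control arrays at spot 20G05, and its difference over both was -0.01 (95% interval -0.05 to 0.03). ABCC2, the apical conjugate exporter MRP2, stood at 0.01 over both at spot 29B14. Other spots of these genes were read on fewer arrays. ABCG2 12K03 was above 0 on 2 of 9 CaCo-2 and 6 of 12 THP-1 arrays, and 47P16 on 3 of 10 and 4 of 12. ABCC2 29O09 was above 0 on 4 of 10 and 2 of 12.

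Over the 45 members with a level in all 4 groups, the median difference was 0.00313 on the log2 scale, against 0.0110 over all spots tested, and 43 of the 45 lay within 0.1 of 0. The median size of a difference, without its sign, was 0.0193 for members and 0.0295 for all spots. By family, 14 of 25 ABC spots and 13 of 20 P-type spots had a positive difference, against 61.0% of all spots. The line differences in control and in TNF-alpha arrays share no array. However, CaCo-2 arrays of the 2 groups, put in sets by their best match, deviated together (correlations of 0.34 to 0.70). The measurements are therefore not independent, and no line comparison was fitted with these sets. Across the 45 members the line differences correlated at r = 0.43 (Spearman's rho 0.34), with the same sign at 29, or 64.4%. Across all 22507 spots the values were r = 0.64, rho 0.55 and 68.9%. These are descriptions across spots, which share arrays and are not independent replicates.

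**Figure D4:**
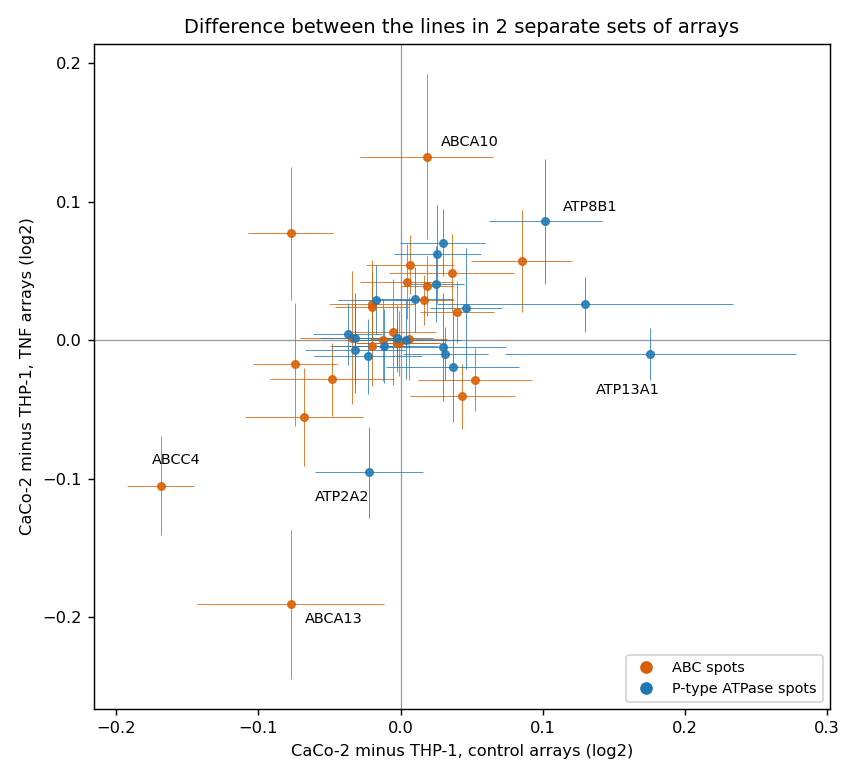
Log2 difference CaCo-2 minus THP-1 between control arrays (horizontal axis) and between TNF-alpha arrays (vertical axis) of the 45 members with a level in all groups; bars are the SE. ABCC4 lies at -0.17 and -0.11 and ABCA13 at -0.08 and -0.19, both lower in CaCo-2 in both, and most members lie within 0.1 of 0.

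Where 0 was raised to the lowest reading, 86 members could be fitted, and the presence patterns above entered as levels. Between control arrays ABCC13 38P17 and ATP8B5P passed, of 155 spots (0.449%). Between TNF-alpha arrays ABCC13 38P17, ATP11A 51M23 and ATP2A3 passed, of 432 spots (1.25%). Over both, ABCC13, ATP8B5P, ATP11A 51M23, ATP2A3 and ATP9B 14H21 passed, of 1526 spots (4.42%), the first 2 higher and the last 3 lower in CaCo-2. These repeat the presence patterns on the same arrays, not all of which had passed there, and are no separate evidence.

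For TNF-alpha at 60 min, 0 of the members passed in either line by limma. As 0 spots of the whole array passed in these fits, they do not show that the members were unresponsive. In CaCo-2, 52 members were tested and 0 of 25624 spots passed (0%), with 725 spots and 3 members at an unadjusted p under 0.05. In THP-1, 58 members were tested and 0 of 26175 passed (0%), with 917 spots and 4 members at an unadjusted p under 0.05. With 0 at the lowest reading, 15 spots passed in CaCo-2 (0.0434%) and 5 in THP-1 (0.0145%), among them 0 members in each. The presence rule called 22 spots in CaCo-2 (0.0637%), 6 in THP-1 (0.0174%) and 0 members in each. Of the members tested, 49 of 52 in CaCo-2 and 56 of 58 in THP-1 had a difference within 0.1 of 0. The median 95% interval reached 0.08 to each side in CaCo-2 and 0.06 in THP-1.

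In CaCo-2 the lowest difference was that of ABCA13. Control arrays read 0.34, 0.35, 0.37, 0.40 and 0.18, and TNF-alpha arrays 0.03, 0.12, 0.15, -0.06 and 0.15. All TNF-alpha arrays lay below all control arrays, but as deposited the intensities overlapped (1.06 to 1.37 against 0.976 to 1.15). The difference was -0.25 ± 0.05 SE, with an unadjusted p = 0.000545 and an adjusted p = 1.00 (limma). CaCo-2 TNF-alpha arrays deviated together with particular control arrays, replicates 1 and 2 with control 1, 4 with control 2, 5 with control 4 and 6 with control 5, at correlations of 0.34 to 0.70, and the labels give no batch. With these sets as a block, added after the data were seen, the difference was -0.24 ± 0.06 SE (adjusted p = 0.905, limma). In THP-1 it was -0.14 ± 0.06 SE (adjusted p = 0.934), from control arrays at 0.31, 0.57, 0.33, 0.54 and 0.30. The 7 TNF-alpha arrays lay between 0.06 and 0.36 with a median of 0.29. In both lines each TNF-alpha array was put with its best-correlated control array, so every array has a set by construction. In CaCo-2, replicate 4 correlated at 0.34 with control 2 and at 0.20 with control 4, so its set is unclear. In THP-1 replicates 1, 2 and 3 went with control 4, at 0.36, 0.36 and 0.30. Replicates 4, 5 and 8 went with control 1, at 0.17, 0.32 and 0.39, and 6 with control 7 at 0.10. Replicates 1, 2 and 3 also correlated with control 3, at 0.21, 0.32 and 0.26, so the THP-1 values do not establish sets. With these sets as a block the THP-1 difference was -0.11 ± 0.07 SE (adjusted p = 1.00, limma).

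ABCA1, which loads cholesterol and phospholipid onto apolipoprotein A-I, had the highest CaCo-2 difference, at spot 79D14. Control arrays read -2.02, -2.06, -1.96, -2.04 and -2.10 and TNF-alpha arrays -1.86, -1.74, -1.98, -2.04 and -1.91, a difference of 0.13 ± 0.05 SE (adjusted p = 1.00, limma) with overlapping ranges. Its other 2 spots were at -0.01 and 0.00058. In THP-1 spot 79D14 was at -0.02, and the difference of the responses was 0.15 ± 0.06 SE (adjusted p = 1.00). ABCA10 stood at 0.11 ± 0.06 SE in CaCo-2, and ATP2B4, a plasma membrane calcium pump, at -0.07 ± 0.03 SE at spot 42M04, with -2.34 to -2.18 on control and -2.36 to -2.34 on 4 TNF-alpha arrays that did not overlap. Non-overlap of measured levels was seen at 100 of 13517 spots in CaCo-2 (0.74%), and at 2 of 30 members, ABCA13 and ATP2B4 42M04.

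In THP-1 the smallest p belonged to ATP13A3, a polyamine pump. It read -2.84 to -2.77 on the 5 control arrays and -2.92 to -2.81 on the 7 TNF-alpha arrays, a difference of -0.07 ± 0.02 SE (adjusted p = 0.934, limma), and the ranges overlapped through TNF-alpha replicate 6 alone. ATP1B3 18G09 stood at -0.05 ± 0.02 SE and ABCE1 08I09, a ribosome recycling factor, at -0.04 ± 0.02 SE, with the same adjusted p. ATP13A1, which removes misplaced helices from the endoplasmic reticulum, had the highest value, 0.15 ± 0.08 SE. Its control arrays read -2.16, -2.15, -2.69, -2.15 and -2.16 and its TNF-alpha arrays -2.14 to -2.08. Without replicate 3, at -2.69, the difference was 0.04. Measured levels did not overlap at 66 of 17909 spots (0.369%) and at 1 of 39 members, ATP13A1.

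The column of THP-1 control replicate 3 read low at 4 member spots, at 0.341 and 0.344 times the median of the other measured THP-1 arrays for ATP9A 90I03 and 85E10, 0.672 times for ATP13A1 and 0.690 times for ABCA5 54L08. Without it the line difference between control arrays went from 0.13 to 0.02 for ATP9A 90I03, from 0.18 to 0.07 for ATP13A1 and from 0.09 to 0.00056 for ABCA5 54L08. The TNF-alpha difference in THP-1 changed sign without it at 3 of the spots, from 0.08 to -0.03 for ATP9A 90I03, from 0.01 to -0.0027 for ATP9A 85E10 and from 0.08 to -0.0079 for ABCA5 54L08. It went from 0.15 to 0.04 for ATP13A1. None of these had passed.

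The response was also compared between the lines. Of 45 members, 0 passed for a difference in response, and of all 22507 spots 0 (0%), with 773 at an unadjusted p under 0.05 and 1 member, ABCA1 79D14. The interval of the difference in response reached a median of 0.10 to each side, wider than that of either line alone. Between the lines, measured levels did not overlap at 546 of 14232 spots between control arrays (3.84%), and at 2 of 30 members, ABCC4 and ABCC5 07N23, both lower in CaCo-2. Between TNF-alpha arrays this was so at 645 of 15298 spots (4.22%) and 0 of 31 members.

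Several spots of 1 gene were set side by side for 27 of the 48 genes. They differed most in how often they were read at all. ABCB10, a transporter of the mitochondrial inner membrane, was above 0 on 22 arrays at spot 28B04 and on 2 at 88A07. ABCC5 ranged from 0 to 21 arrays over 3 spots, ATP2B4 from 1 to 21 over 4, ABCE1 from 2 to 20 over 2, ABCF2 from 0 to 17 over 2, ABCF3 from 5 to 22 over 4, ABCC2 from 6 to 22 over 2 and ABCG2 from 7 to 22 over 3. In contrast both spots of ATP1B3 were above 0 on 22 arrays, both of ABCA2 on 17, those of ATP2B1 on 17 and 18 and those of ATP11A on 12 each. The 12 arrays of the ATP11A spots were not the same 12, being 1 CaCo-2 and 11 THP-1 arrays for one and 4 and 8 for the other. What part of a gene each spot carries was not analysed here.

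Between control arrays of the lines, at least 2 spots were tested for 13 genes, with a median range of 0.03 between spots of a gene and a median SE of 0.03. The ranges reached 0.12 for ABCA5 and ABCF3 and 0.09 for ABCA1 and ATP9A. All tested spots had the same sign at 7 of the 13, and at 6 of 10 over both conditions. For TNF-alpha it was 7 of 12 genes in CaCo-2 and 14 of 17 in THP-1, where 18 of 58 members and 32.2% of all spots lay above 0. ATP1B3 had close values at its 2 spots, 0.05 ± 0.02 SE and 0.04 ± 0.03 SE in the line difference over both. ABCF3 did not: its 3 tested spots stood at 0.07, 0.04 and -0.02. For ABCA1 spots 43J12 and 45G17 stood at -0.04 and 0.02, and for the flippase ATP11B -0.02, 0.03 and -0.02.

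**Figure D5:**
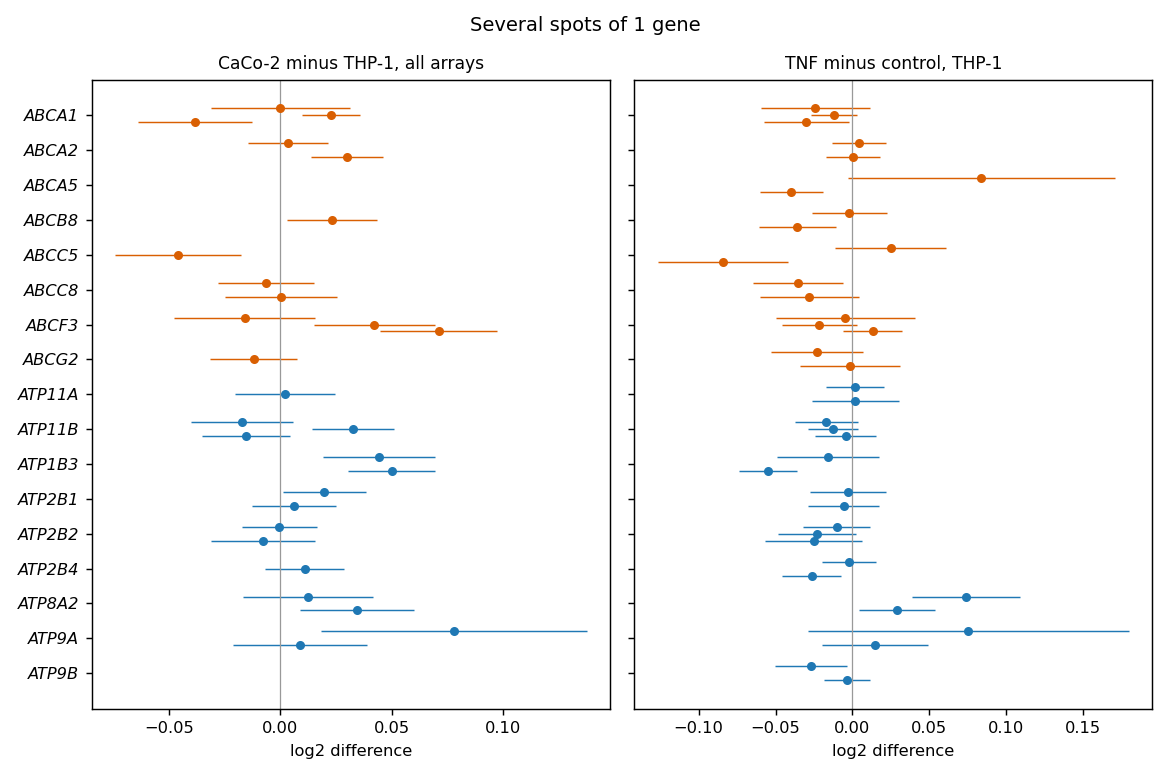
Log2 differences (horizontal axes) at each tested spot of the genes that have several (vertical axis), CaCo-2 minus THP-1 over all arrays at left and TNF-alpha minus control in THP-1 at right; bars are the SE. At left the ATP1B3 spots lie close together and the ABCF3 spots on both sides of 0 over a range of 0.087, and at right the ABCA5 spots lie 0.12 apart.

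By subfamily, the ABCA genes were the most numerous, with 18 spots of 11 genes. ABCA8, ABCA9, ABCA6, ABCA10 and ABCA5 are neighbours in this order on chromosome 17. Spots of ABCA6 and ABCA10 were above 0 on all 22 arrays, of ABCA5 on 10 and 13, of ABCA9 on 4 and 9 and of ABCA8 on 1, 8 and 8. Spots of 1 gene differed as widely (ABCB10 at 2 and 22), so this is no comparison of the genes. Of the drug and conjugate exporters, the ABCC subfamily had 13 spots of 8 genes, of which 5 could be tested over both lines and ABCC4 passed. ABCC3 was above 0 on 2 of 10 CaCo-2 and 2 of 12 THP-1 arrays and had too few values for the fits with 0 as missing. ABCC8, the sulfonylurea receptor of beta cells, was above 0 on 15 and 21 arrays at its 2 spots, and ABCC10 on 2. Of the cholesterol exporters, ABCG1 was above 0 on 6 and 5 arrays. ABCD4, of the lysosomal vitamin B12 pathway, was above 0 on 6 of 10 and 4 of 12 arrays. Of the ATP2 calcium pumps, 13 spots of 6 genes, 6 could be tested over both lines and 0 passed (smallest adjusted p = 0.195, limma). Of the flippases ATP8 to ATP11, ATP10A was above 0 on 1 array and ATP8A1 on 1. With 0 as missing, 19 of the 86 spots had too few values for any comparison.

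Genes that work with these pumps were described from lists chosen for their roles. Of 27 partners and regulators, 8 had spots, 11 in all. The copper importer SLC31A1, which feeds the copper pumps, was lower in CaCo-2 over both conditions at 1 spot, by -0.23 ± 0.06 SE (adjusted p = 0.0296, limma), the only call among them in the 6 comparisons. That is 1 of 10 spots tested in this comparison, beside 6.66% of all spots, and nothing is read from it. The value lay between -0.27 and -0.13 under other settings, of which 6 of 11 kept the call. It was lost with 0 at the lowest value, without normalization, with array medians subtracted, with the mean of paired columns and with 33 columns. With an array left out it lay between -0.26 and -0.20, and the call was lost without THP-1 control replicate 4, CaCo-2 control replicate 2 or CaCo-2 TNF-alpha replicate 4 or 5 (highest adjusted p = 0.0600). The flippase subunits TMEM30A and TMEM30B, the SERCA inhibitor SLN, the sodium pump regulators FXYD3 and FXYD5 and the sterol-sensing receptors NR1H3 and RXRA did not pass. The median line difference of the list was -0.03, against 0.01 for all spots. The ATPases of other classes, V-type and F-type, had 19 spots of 15 symbols and 0 calls, with a median of 0.02. TAP2, an ABC family peptide transporter under another name, had 1 spot and did not pass.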

How the data were processed

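The deposited values are linear intensities of a cDNA array with 34560 spots and a 33P label, and no label tells how the authors read or scaled them. As read from the values, 11 of 33 columns lie near 3 times the scale of the others, as sums of 3 components would. A summed and a single column were taken as 1 array where the former was at least double the latter at over 99% of spots above 0. This joined 10 pairs (lowest share 99.892%, highest for any other pairing 83.4%). Of these, 9 were counted once through the single column, and 1 whose labels oppose each other (CaCo-2 control and CaCo-2 TNF-alpha) was left out. THP-1 control replicate 3, a summed column with no partner, was divided by 3. This left 22 arrays. Arrays give no counts, and their number limits the precision.

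From the deposited intensities, log2 levels were computed here after leaving out 0 and values below 0, which are codes, and quantile normalization. They were fitted with limma 3.58.1 (lmFit, eBayes with trend) in R 4.3.3 for spots with at least 2 values above 0 in each group. Differences are on the log2 scale, CaCo-2 minus THP-1 or TNF-alpha minus control, adjusted by Benjamini-Hochberg across every spot tested, with 0.05 as the threshold. Presence was tested with Fisher's exact test (scipy 1.17.1 in Python 3.11.15), added after the data were seen, and by a rule that needs at least 4 measured arrays in each group. "Over both" is the mean of the line differences in control and TNF-alpha arrays. The code was tested on simulated data. Alternatives were 0 at the lowest value, other filters, scalings and columns, and each array left out.

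Members and lists were chosen with earlier results of these data known. Named spots were drawn from those past the threshold and the 3 smallest p-values in each direction of each comparison. Spots called by the presence rule, genes with 3 or more spots and genes of known role were added. Not all are described. ABCB8 69N02, at 0.06 ± 0.02 SE between TNF-alpha arrays of the lines (adjusted p = 0.220, limma), ATP2B2 and ATP8A2 were left out above. ABCF3 31O01, ABCA2 27B10, ABCC5 37K20, ATP9B 14H21 and the neighbours on chromosome 17 were chosen after their values were seen. Replicate numbers recur across groups, but arrays with the same number did not all deviate together (correlations of -0.33 to 0.66), so the numbers were not taken as pairing.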

Additional observations from a re-analysis of the deposited data

Results flagged for a closer look

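Arrays that stood apart from their own group, with a gap to the nearest array above Dixon's 95% critical value, were searched for in 71 sets of 4 to 7 levels over 23 named spots. The search found 9. In independent sets chance marks about 1 in 20, or 3.55 of 71. These sets share arrays, and their spots were picked in part by p-values in these data, so no excess is read from this. ABCA13 read 0.0591 on THP-1 TNF-alpha replicate 8, against 0.27 to 0.36 on the other 6 arrays. ABCC2 spot 29B14 read -2.49 on THP-1 TNF-alpha replicate 5, and the others read -2.41 to -2.36. ABCC5 spot 07N23 read -2.02 on CaCo-2 control replicate 3 (others -1.95 to -1.93) and -1.91 on CaCo-2 TNF-alpha replicate 6 (above the other 3 measured arrays, the lowest of them at -2.02). ATP13A1 read -2.06 on CaCo-2 TNF-alpha replicate 6 (others -2.15 to -2.13) and -2.69 on THP-1 control replicate 3 (others -2.16 to -2.15), the array that comes from the summed column. ATP13A3 read -2.81 on THP-1 TNF-alpha replicate 6, above the others at -2.92 to -2.88. ATP2B4 spot 42M04 read -2.41 on THP-1 TNF-alpha replicate 5, below the others at -2.34 to -2.31. ATP8B5P read -0.0807 on CaCo-2 control replicate 2, above the others at -0.74 to -0.58.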

How the results depend on the processing

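Missing levels limit these values: a member was above 0 on a median of 60.0% of CaCo-2 and 66.7% of THP-1 arrays, and the meaning of a 0 is unknown. Where a setting changed a count, the cause was not tested. Counts below are spots past the threshold, with members after them where they changed. For TNF-alpha in CaCo-2 (0 spots) the count was 15 with 0 at the lowest value, 3 with the mean of paired columns and 1 with all 4 groups in 1 fit, and 0 to 0 with an array left out. For TNF-alpha in THP-1 (0) it was 5 with 0 at the lowest value, 15 with the mean of paired columns and 8 with all 33 columns, and 0 to 1 with an array left out. For the difference in response (0) it was 16 with the mean of paired columns, 6 with 33 columns and 1 with the replicate number as a block, and 0 to 0 with an array left out.

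For the lines in control arrays (13 spots, 1 member) it was 155 with 0 at the lowest value (2 members), 31 with only spots above 0 on every array, 0 without normalization, 0 with array medians subtracted, 52 with 33 columns, 188 with array weights and 60 with all 4 groups in 1 fit. Without CaCo-2 control replicate 1 it was 294, the highest, and the lowest was 1, with 0 to 1 members. The member, ABCC4, was lost, for 0 members, with only spots above 0 on every array, where it was not tested, without normalization, with medians, with the mean of paired columns, with 33 columns, without the variance trend, with 4 groups and with the block. For the lines in TNF-alpha arrays (104 spots, 0 members) it was 432 with 0 at the lowest value (3 members), 60 with only spots above 0, 19 without normalization, 1411 with medians (1 member, ABCA4), 34 with the mean of paired columns, 28 with 33 columns and 540 with weights (1 member, ABCA13). Leaving out an array gave 41 to 376 spots and 0 to 1 members, the highest without THP-1 TNF-alpha replicate 8, which called ABCA13. For the lines over both (1500 spots, 1 member) it was 1526 with 0 at the lowest value (5 members), 100 without normalization (0), 2682 with medians (2), 319 with the mean of paired columns (0), 384 with 33 columns (0) and 3201 with weights (3). Members were 2 with only spots above 0 on every array (ABCA13 and ATP8B1) and 2 with at least 4 values (ABCA13 and ABCC4). With an array left out it was 944 to 2201 spots and 1 to 2 members; ABCA13 joined ABCC4 without THP-1 control replicate 1 or 7 or THP-1 TNF-alpha replicate 8, ATP8B1 without THP-1 TNF-alpha replicate 6 or CaCo-2 TNF-alpha replicate 1, and ABCF3 08F07 without CaCo-2 control replicate 1.

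Replicate numbers were not taken as pairing the arrays: same-numbered arrays correlated at 0.66, -0.31, 0.20 and -0.14 in CaCo-2 and at -0.33, -0.13, 0.26 and -0.19 in THP-1. With the replicate block 0 spots passed in control arrays (0 members), 167 in TNF-alpha arrays and 1068 over both (2 members, ABCC4 and ABCA13).

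For presence, letting 1 array depart from the rule raised the counts from 22 to 1002 for TNF-alpha in CaCo-2 (3 members), from 6 to 282 in THP-1 (1), from 127 to 1587 for the lines in control arrays (6) and from 80 to 967 in TNF-alpha arrays (5). With both columns of a pair used, they were 13 in CaCo-2, 1 member in control arrays, and 42 for the exact test (98). Leaving out an array gave 38 to 63, 6 to 18, 162 to 285 and 89 to 141 spots in the same order, with 0 to 1, 0 to 0, 2 to 3 and 0 to 1 members, and 43 to 55 with 1 to 2 members for the exact test. The rule asks every array of both groups to agree, so it is easier to meet with 1 array fewer.

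With any array left out, the spots named by the rule for named spots, ABCA13 in THP-1 and SLC31A1 over both kept their direction in the comparisons that named them. Elsewhere the TNF-alpha difference in THP-1 turned without THP-1 control replicate 3 for ATP9A 90I03 (-0.03), ATP9A 85E10 (-0.0027) and ABCA5 54L08 (-0.0079). Under other settings 20 of the values for named spots changed direction. With the mean of paired columns these were ABCC2 29O09 (-0.15, TNF-alpha in CaCo-2), ATP2A2 (-0.0411, TNF-alpha in THP-1), for the lines in control arrays ATP2B4 62C17 (-0.23), ABCC4 (0.0440), ABCA1 79D14 (0.0495) and ABCC5 07N23 (0.0585), ABCA6 over both (0.0284), and in the difference in response ABCA4 (-0.21) and ATP13A1 (0.0839). With 33 columns they were ATP2A2 (-0.0087), ATP2B4 62C17 (-0.0487), ABCA1 79D14 (0.0217) and ABCA4 (-0.0253) in the same comparisons. Without normalization they were ABCC2 29B14 (0.0216, TNF-alpha in CaCo-2, and 0.0119 in the difference in response), ATP2B4 62C17 (-0.0084, control arrays) and ABCB10 28B04 (0.0315, difference in response). With 0 at the lowest value they were ATP8A2 89C05 (-0.0050, TNF-alpha in THP-1), ABCA4 (-0.34) and ATP13A1 (0.0475), both in the difference in response.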
